A study of Caenorhabditis elegans with 4 samples.

Results

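The Hox cluster segment studied here is the stretch of Caenorhabditis elegans chromosome III from 7500000 to 7850000 (WormBase build WS220), which holds the lin-39/ceh-13 and the mab-5/egl-5 parts of the worm's Hox cluster. Its members are all ChIP-seq peaks of the transcription factor MAB-5::GFP whose midpoint lies in it. These were 14 of 642 distinct intervals in the authors' combined list, 127 of 29995 in the list of replicate 1 and 130 of 29995 in that of replicate 2. The segment makes up 2.54% of chromosome III, measured to the last replicate peak.

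The peaks come from 2 ChIP samples of mixed male and hermaphrodite embryos of strain OP27, grown at 20 °C. This strain carries the unc-119(ed3) mutation and the integrated transgene wgIs27, in which mab-5 is fused to TY1, EGFP and FLAG tags and which also brings in unc-119. Per the labels' protocols, the material was crosslinked with 2% formaldehyde and chromatin was precipitated with anti-GFP antibodies. Input DNA of the same strain, also 2 samples, was not analysed here. Whether the replicates are separate cultures is not stated in the labels. The strain was made by bombardment, and the genotype lists a mab-5 transgene but no mutation of native mab-5. Sequence of the mab-5 locus is thus present in the transgene as well as in the chromosome, and peaks on native and transgenic copies cannot be told apart in these lists. How far the transgene extends and how often it was integrated is not given in the sources used here.

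Hox genes encode homeodomain transcription factors that give cells their identity along the body axis, and they are known to regulate themselves and each other. In C. elegans, ceh-13 is the labial-type gene of the anterior body, and lin-39 acts in the mid-body, where it specifies vulval precursor cells. The gene mab-5 patterns the posterior body and steers the migration of the left Q neuroblast, and egl-5 is the Abdominal-B type gene of the tail. In the RefSeq gene table of assembly WBcel235, lin-39 and ceh-13 are direct neighbours among protein-coding genes. Between ceh-13 and mab-5 lie 37 other protein-coding genes, and between mab-5 and egl-5 lies 1, cyk-7. Neighbours on the outer side are lig-4 beside lin-39 and egl-45 beside egl-5. That table and the peak lists belong to different builds, so the gene order is given for orientation and no peak is assigned to a gene.

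The segment held more combined peaks than any of the 37 other windows of its size on chromosome III. Windows that overlap the segment were not compared, here or below. It contained 14 distinct peaks (exact 95% Poisson interval 7.65 to 23.5), whereas the other 37 windows held a median of 3 and at most 7. Its count was 4.67 times that median. The densest of the other windows ran from 4700000 to 5050000. Over all 6 nuclear chromosomes, none of the other 280 windows held more than 9, a count reached on chromosome IV between 13450000 and 13800000. The segment thus carried 11.7% of the 120 combined peaks of chromosome III. Combined intervals covered 8447 bp of the segment, against a median of 1257 bp and at most 3445 bp in the other windows.

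Each replicate gave the same picture when taken alone. Among the 644 highest scoring nuclear peaks of a replicate, as many as the combined list has entries, the segment held 13 distinct intervals in replicate 1 and 13 in replicate 2 (interval 6.92 to 22.2 for each). The other windows had a median of 3 in both replicates, with at most 9 in replicate 1 and at most 7 in replicate 2. Taken over all listed peaks, however weak, the segment did not stand out. It held 127 peaks of replicate 1, against a median of 121 in the other windows, of which 15 held at least as many. For replicate 2 it held 130, against a median of 128, with 18 windows at or above it.

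**Figure D1:**
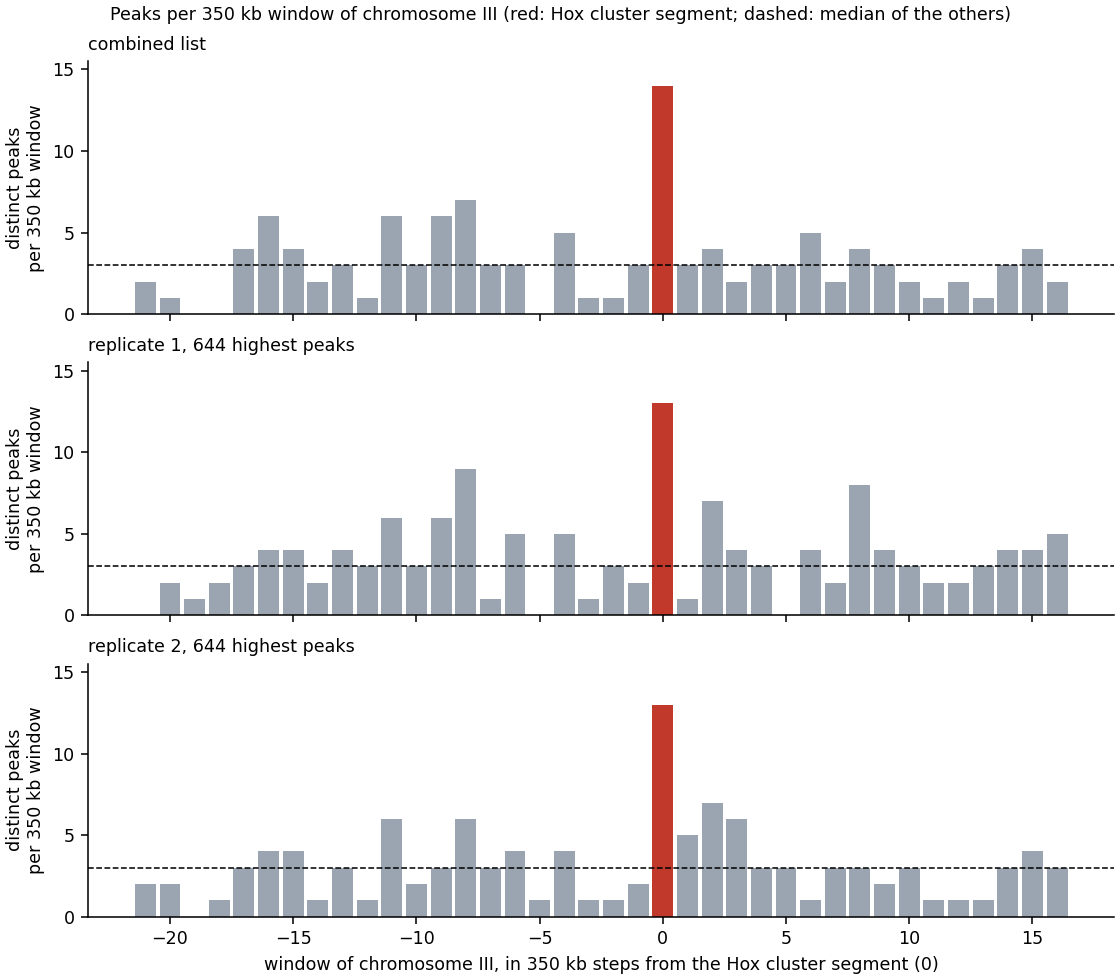
Distinct peaks (y axis) in each 350 kb window of chromosome III (x axis, in window steps from the Hox cluster segment at 0) for the combined list and the 644 highest peaks of each replicate. The red bar is the segment, with 14, 13 and 13 peaks, and the dashed line is the median of the 37 other windows, 3 in each panel.

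The excess was larger at earlier places in the replicate lists. The top score was shared by 471 distinct intervals of replicate 1 and 273 of replicate 2. The first 100 places were therefore tied in score and ordered by peak number. They are set apart from the next places by peak number, not by score. Among the first 100 nuclear peaks of each replicate, the segment held 6 distinct intervals, and the other windows averaged 0.459 in replicate 1 and 0.486 in replicate 2. That is 13.1 and 12.3 times the mean, and 6 of the 24 peaks of this class on chromosome III. From place 101 to 644 it held 8 intervals in each replicate, 2.82 and 3.48 times the mean. In this class 1 other window of replicate 1 held more peaks, 9 between 4700000 and 5050000. From place 645 to 5000 the ratio was 2.06 in replicate 1 (35 peaks) and 1.32 in replicate 2 (26 peaks), where 6 windows held at least as many. Beyond place 5000 the segment held 80 peaks of replicate 1 and 92 of replicate 2, which is 0.790 and 0.905 times the mean. An interval entered several times with unequal scores, described further down, counts once in each class in which it has an entry.

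**Figure D2:**
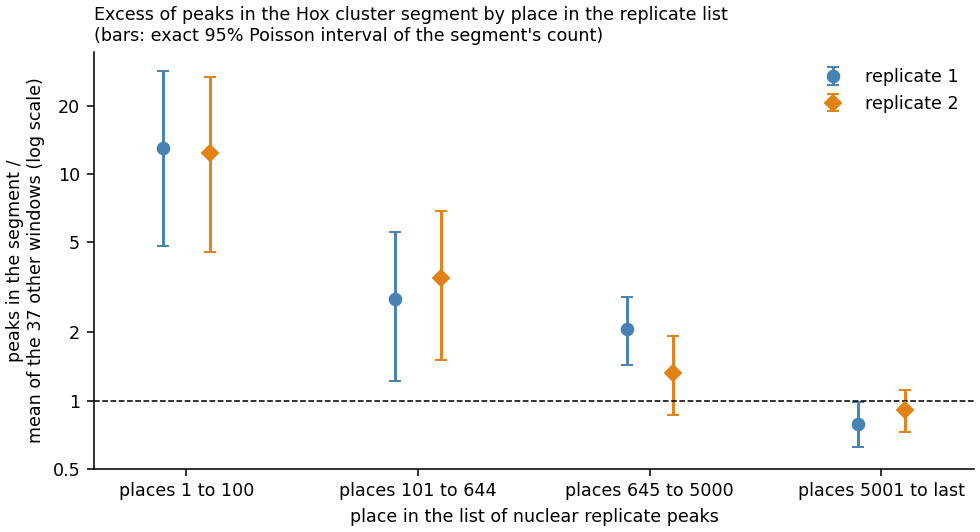
Number of peaks in the Hox cluster segment divided by the mean of the 37 other windows of chromosome III (y axis, log scale), for 4 classes of place in the replicate lists (x axis). Bars are exact 95% Poisson intervals of the segment's count, and the ratio declines from 13.1 and 12.3 in the first 100 peaks to 0.790 and 0.905 beyond place 5000 in replicates 1 and 2.

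The first places of every list, by peak number, were taken up by the segment to a similar degree. It supplied 3 of the first 10 combined peaks, 3 of the 9 distinct intervals among the first 10 nuclear peaks of replicate 1, and 3 of the first 10 of replicate 2. No other window of chromosome III supplied more than 1. Among the first 20, the segment supplied 5 combined intervals, 5 of replicate 1 and 4 of replicate 2, and again no other window supplied more than 1.

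Combined peaks of the segment fell into 5 groups when centres up to 15 kb apart were joined. From left to right these were a pair of peaks, 2 single peaks, a group of 9 close peaks and a single wide interval. The positions are shown here in that order, each with the authors' peak number in the combined list and in each replicate, where number 1 is the first of 30000 replicate peaks.

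The leftmost pair lay 10.1 kb apart, edge to edge. Combined peak 258 (III, 7544035 to 7544574) corresponded to peak 164 in replicate 1 and to peak 812 in replicate 2. Combined peak 16 (7554692 to 7554943) corresponded to peak 22 in replicate 1 and to peak 49 in replicate 2. Outside the close group, no region of the segment had a lower number in the combined list. Both combined peaks had the top score of the list, a ceiling of 2.75 that 270 distinct combined intervals share.

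To the right of this pair followed 155 kb without any combined peak, the longest such stretch of the segment. It contained 36 replicate 1 peaks and 32 replicate 2 peaks, or 0.232 and 0.206 per kb, against 0.347 and 0.354 per kb on the rest of chromosome III. The stretch was picked for its lack of combined peaks, and density varies along the chromosome. The sparsest other 350 kb window, from 6450000 to 6800000, held 68 peaks of replicate 1 and 81 of replicate 2. Per kb, the stretch was denser than that window in replicate 1 and sparser in replicate 2. The best peaks of the stretch in both replicates sat at one place. Replicate 1 had peak 513 there (7572783 to 7573246, score 2.53), and replicate 2 had peak 1936 (7572793 to 7573282, score 0.630).

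The single peaks in the middle were weak in at least 1 replicate. Combined peak 542 (7710277 to 7710816, score 1.82) corresponded to peak 1324 in replicate 1 and to peak 3660 in replicate 2. Combined peak 535 (7728169 to 7728708, score 1.81) corresponded to peak 2835 in replicate 1 and to peak 373 in replicate 2. Neither reached the top score of the combined list.

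The close group spanned 24997 bp, from 7765861 to 7790857, and included 9 of the 14 combined peaks, 7 of them at the top score. Its member with the lowest peak number was combined peak 1 (7784057 to 7784493), which corresponded to peak 5 in replicate 1 and to peak 2 in replicate 2. The replicate intervals there were 265 bp and 383 bp wide, and their midpoints differed by 4 bp. Combined peaks 4 (7780419 to 7780743) and 15 (7780619 to 7780915) overlapped each other by 125 bp, with centres at -3.69 and -3.51 kb from that of peak 1. Both met peak 7 in replicate 1 and peak 7 in replicate 2. Each replicate also listed a second, overlapping interval at this place, peak 219 in replicate 1 and peak 26 in replicate 2. Combined peak 6 (7778534 to 7778759), centred at -5.63 kb, corresponded to peak 30 in replicate 1 and to peak 6 in replicate 2.

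The outer members of the close group had later peak numbers. On the left, combined peak 132 (7776027 to 7776566) corresponded to peak 95 in replicate 1 and to peak 189 in replicate 2. Combined peak 564 (7770919 to 7771458, score 1.78) corresponded to peak 1193 in replicate 1 and to peak 1519 in replicate 2, with midpoints 1 bp apart. The left end was combined peak 427 (7765861 to 7766400, score 2.25), the most unequal region of the segment. It was peak 137 of replicate 2, at that list's top score, whereas its overlapping replicate 1 peak with the lowest number was 9827 (score 0.288), whose midpoint lay 403 bp away. A second overlapping replicate 1 peak, number 29697 (score 0.0444), was centred at -18.17 kb, as was replicate 2 peak 137. On the right, combined peak 172 (7788265 to 7788804) corresponded to peak 1914 in replicate 1 and to peak 123 in replicate 2. Combined peak 180 (7790318 to 7790857) corresponded to peak 118 in replicate 1 and to peak 414 in replicate 2. None of these 5 outer regions came before number 95 in either replicate, and none of the inner ones came after number 30. The most unequal of them, combined peaks 427 and 172, had the earlier number in replicate 2.

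**Figure D3:**
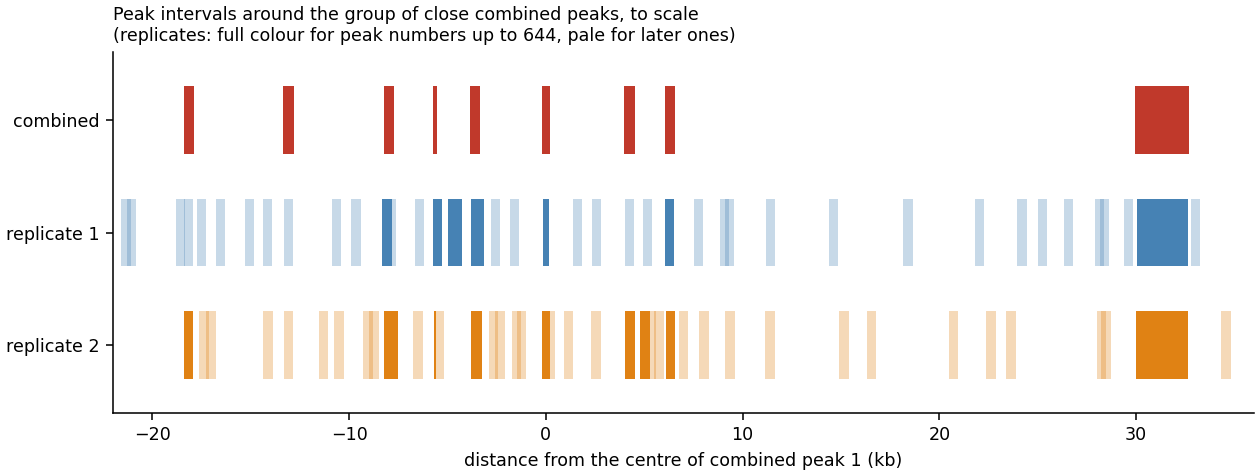
Peak intervals of the combined list and both replicates to scale, as distance from the centre of combined peak 1 (x axis, kb). Full colour marks replicate peaks with numbers up to 644 and pale colour later ones. The 9 close combined peaks, of which peaks 4 and 15 overlap, lie between -18.1 and 6.31 kb, and the wide interval of 2715 bp is centred at 31.3 kb.

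Beyond the 644 highest, the span of the close group held 15 distinct peaks of replicate 1 and 19 of replicate 2. Windows of the same span elsewhere on chromosome III, moved in steps of 1000 bp, held a median of 8 in both replicates and at most 22. The span was set by the combined peaks, and its counts include replicate partners of these, such as peaks 1193 and 1914 of replicate 1 and peak 1519 of replicate 2, so they are not comparable on equal terms with windows placed elsewhere. Whether extra copies from the transgene raised the number of peaks here was not tested. Without this group the segment would have held 5 combined peaks, 1.67 times the median, and 6 other windows held at least 5. Among the 644 highest replicate peaks, 4 intervals of replicate 1 and 3 of replicate 2 lay in the segment outside the group, where the median of the other windows was 3.

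The rightmost combined region was a single interval of 2715 bp (7814232 to 7816946), centred 31.3 kb to the right of peak 1, with 23.4 kb free of combined peaks on its left. It was peak 13 in replicate 1, where it was 2593 bp wide, and peak 18 in replicate 2, with 2663 bp. Its midpoints in the replicates differed by 7 bp. No other nuclear interval in any of the lists was entered more than once or was as wide. Of its 6 entries in replicate 1, 3 were at the top score, as were 2 of its 5 entries in replicate 2 and all 3 in the combined list. The lowest entries had scores of 1.06 in replicate 1 and 0.0647 in replicate 2. In the remaining 33.1 kb up to the right border of the segment, no replicate peak came before number 1760 in replicate 1 or 11841 in replicate 2.

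**Figure D4:**
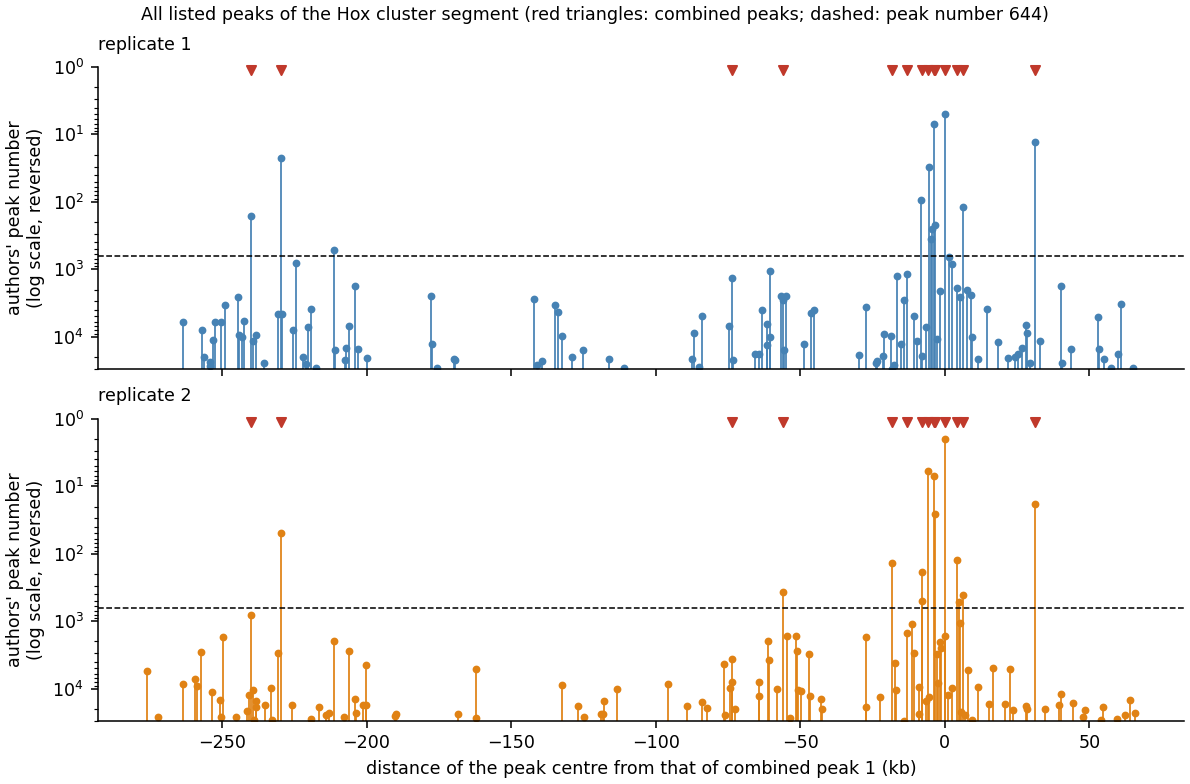
All listed peaks of each replicate in the Hox cluster segment, as authors' peak number (y axis, log scale, reversed so that the first peaks are at the top) against distance from combined peak 1 (x axis, kb). Red triangles mark the 14 combined peaks, and the dashed line marks peak number 644. Most peaks above the line stand in the close group. The others are at the left pair (peak 812 of replicate 2 there lies below the line), at the wide interval, at replicate 1 peak 513 (-211 kb) and at replicate 2 peak 373 (-55.9 kb).

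Each of the 14 combined regions overlapped a peak in both replicates, as did 105 of the 106 on the rest of chromosome III. The search covered the complete replicate lists, and the combined list draws on the same samples. Median peak numbers in the segment were 106.5 in replicate 1 and 130.0 in replicate 2, against 358.0 and 379.5 on the rest of the chromosome. In replicate 1, 9 of the 14 regions met a top-score peak, against 61 of 106 on the rest of the chromosome. In replicate 2 the counts were 9 of 14 in the segment and 43 of 106 on the rest of the chromosome. A top-score peak in both replicates was met by 7 of 14 regions in the segment (50.0%, 95% exact interval 23.0 to 77.0%) and by 30 of 106 elsewhere (28.3%, 20.0 to 37.9%), with overlapping intervals. Peaks 4 and 15, which share their replicate partners, count as separate regions in these counts. Spearman's rho of the replicates' peak numbers across the 14 regions was 0.71. It is given as a description, since peaks 4 and 15 share their replicate partners and neighbouring regions are not independent. Midpoints of the replicate partners, taken by lowest peak number, differed by 1 to 403 bp with a median of 39.5 bp. This was close to the median of 44.0 bp on the rest of the chromosome.

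**Figure D5:**
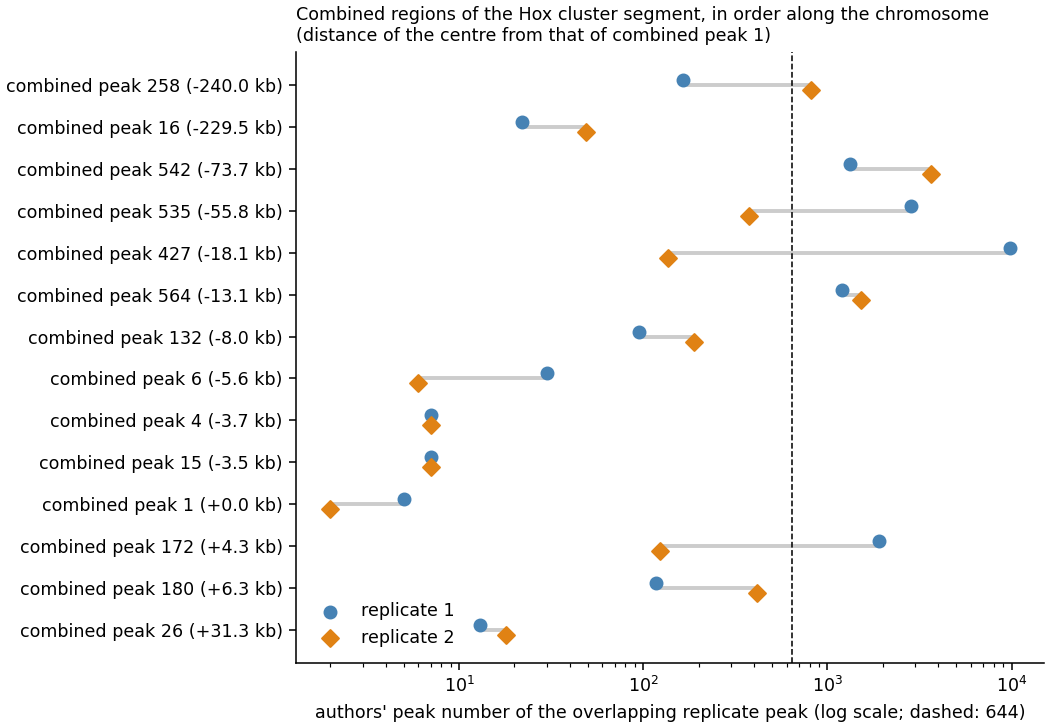
The 14 combined regions of the Hox cluster segment in order along the chromosome (y axis, left end at the top) with the authors' peak number of the overlapping peak in replicate 1 (blue circles) and replicate 2 (orange diamonds; x axis, log scale). Where several replicate peaks overlap a region, the one with the lowest number is shown. The pairs lie closest for peaks 4 and 15, which share the same partners, number 7 in both replicates. They lie farthest apart for peak 427, at 9827 in replicate 1 and 137 in replicate 2.

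Shares of strong and of shared peaks were higher in the segment than on the rest of chromosome III, but with few peaks their intervals were wide and overlapped, and the differences were not tested. Of the segment's combined peaks, 10 of 14 had the top score (71.4%, 95% exact interval 41.9 to 91.6%), against 50 of 106 on the rest of the chromosome (47.2%, 37.4 to 57.1%) and 42.1% of the whole list. Of the 13 segment peaks among the 644 highest of replicate 1, 8 overlapped one of the 644 highest of replicate 2 (61.5%, 31.6 to 86.1%). On the rest of the chromosome 46 of 126 did (36.5%, 28.1 to 45.6%), and over all nuclear peaks of that class 39.2% did. In the other direction the counts were 9 of 13 (69.2%, 38.6 to 90.9%) in the segment and 45 of 104 (43.3%, 33.6 to 53.3%) on the rest of the chromosome, with 39.5% over the genome. Overlapping peaks of one replicate count separately in these shares. Examples are peaks 7 and 219 of replicate 1, and peaks 189 and 496 and peaks 7 and 26 of replicate 2. Over all listed peaks, 64 of 127 replicate 1 peaks of the segment overlapped a replicate 2 peak (50.4%, 41.4 to 59.4%), compared with 45.1% on the rest of the chromosome and 40.9% over the genome. The corresponding shares for replicate 2 were 53.1%, 44.5% and 41.1%.

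Some strong replicate peaks of the segment had no combined peak. In replicate 1, 9 of the 13 overlapped a combined peak (69.2%), where the share was 57.4% over the genome. In replicate 2, 12 of the 13 did (92.3%), where the genome's share was 71.1%. The replicate 1 peaks without one included 2 at the top score, peak 359 (7779296 to 7779759) and peak 251 (7779563 to 7780026). These overlap each other, lie within the close group between combined peaks 6 and 4, and met no listed replicate 2 peak of any score. The others were peak 513, in the long stretch described above, and peak 647 (7785629 to 7786092), which met replicate 2 peak 12548. In replicate 2 the exception was peak 523 (7789080 to 7789569), between combined peaks 172 and 180, which met replicate 1 peak 2558.

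Combined peaks of the segment lay close together and often departed from the list's usual width. The median distance to the nearest other combined peak, centre to centre, was 4283 bp in the segment and 27577.5 bp on the rest of chromosome III. Distances shorten where a window holds more peaks, so they are not independent of the segment's count. No comparison at equal density was made. A neighbour within 5 kb was present for 7 of 14 peaks (50.0%, 23.0 to 77.0%), against 24 of 106 on the rest of the chromosome (22.6%, 15.1 to 31.8%), with overlapping intervals. Most combined peaks are 540 bp wide, but 6 of the 14 in the segment were not (42.9%, 17.7 to 71.1%), 5 being narrower and 1 wider. On the rest of the chromosome 12 of 106 were not (11.3%, 5.99 to 18.9%), all of them narrower, and the intervals of both shares overlapped. Departures were rarer in the replicate lists. In replicate 1 they numbered 2 of 127 in the segment (0.191 to 5.57%) and 0 of 4658 on the rest of the chromosome (0 to 0.0792%). In replicate 2 they numbered 4 of 130 (0.845 to 7.69%) and 1 of 4759 (0.000532 to 0.117%). The whole lists held 13 such intervals of 29995 in replicate 1 and 30 of 29995 in replicate 2. The narrow segment intervals were those of combined peaks 16, 6, 4, 15 and 1, the 5 with the lowest peak numbers in the segment.

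At the borders, the combined peaks nearest to the limits were peak 258 inside and peak 420 (7463193 to 7463732) outside on the left, 44.3 and 36.5 kb from the limit. On the right they were the wide interval inside, 34.4 kb from the limit, and peak 166 (7854356 to 7854895) outside, 4.63 kb from it. Peak 166 had the top score. The replicate peaks nearest to the limits had numbers of 3652 or later.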

How the data were processed

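MAB-5::GFP binding was measured by ChIP-seq in 2 ChIP samples; input DNA was not analysed here. Per the file headers, the authors called peaks with SPP, passed them through the irreproducible discovery rate procedure and gave them in WormBase WS220 coordinates. The authors deposited a score for each peak, without naming its unit, and a running peak number. Each replicate list had 30000 entries, with scores down to 0.0424 in replicate 1 and 0.0327 in replicate 2. Of their nuclear peaks, 40.9 and 41.1% overlapped a peak of the other replicate, so being listed is not taken here as reproducibility. The sources used here give no aligner, versions or thresholds and do not say how both replicates were combined, and read depth is unknown.

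Lists were read with pandas 2.3.3 and numpy 2.4.6 under Python 3.11.15, intervals were computed with scipy 1.17.1, and plots were drawn with matplotlib 3.10.9. Identical intervals of one list were counted once, with the lowest peak number. A peak was placed by its midpoint. Replicate lists were ordered by score, with ties ordered by peak number, and mitochondrial peaks left out. Peaks overlapped when they shared at least 1 bp, and the overlapping peak with the lowest number was taken as partner. Chromosome III was divided into 38 full windows of 350 kb counted from the start of the segment, up to the last replicate peak at 13781097. Counts carry exact 95% Poisson intervals and shares exact 95% (Clopper-Pearson) intervals, which cover counting error only. Counting and overlap were tested on simulated data.

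The segment, the gene names and the alternatives were chosen with earlier results of these data known. The segment's counts are therefore set beside the other windows with no p-value. Regions named are all combined peaks of the segment, the strongest replicate peaks without a combined peak and the peaks at the borders. The limit of 15 kb that separates groups of peaks and other spans were chosen after the values were seen.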

Additional observations from a re-analysis of the deposited data

How the results depend on the processing

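No paired analysis was possible because the input samples that share replicate numbers with the ChIP samples were not analysed here and no result comes from a test. Of 37 alternative values, 28 stayed within the interval of the value reported, or at the same rank. Against windows that do not overlap the segment, its combined count stayed first with the grid shifted and with sliding windows (at most 9 elsewhere). It also stayed first with overlapping intervals merged, with every entry counted and over all chromosomes. For the alternatives with either replicate left out, the combined list was not rebuilt. The highest peaks of the remaining replicate's own list were counted instead (ratio 4.33 in both cases). These values repeat the single-replicate counts given above and are among the 28, so they are no separate check. Among top-score peaks alone the ratio to the median was 10.0, against a median of 1. With the close group left out, an alternative chosen after seeing the data, the ratio was 1.67 and the rank 7 for the combined list, and the ratio was 1.33 for replicate 1 and 1 for replicate 2. The ratio for all listed peaks was 1.05 in replicate 1 and 1.02 in replicate 2, where the most and weakest peaks enter. For a list shortened to its strongest peaks it was 5 in replicate 1 and 11.0 in replicate 2, where the median of the other windows fell to 1 and the segment held 11. For the 5000 highest it was 2.47 in replicate 1 and 1.77 in replicate 2. Replicate overlap in the segment ranged from 38.5 to 69.2% and the share at the top score from 50.0 to 75.0%. With 14 regions, shares carry wide intervals, and neither read depth nor input coverage can be judged from these lists.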
